A study of Mus musculus with 12 samples.

Results

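The genes described here are 42 histone lysine methyltransferases, demethylases and core cofactors, followed in fusion-transformed bone marrow cells of mice to which PRDM16 or its mutant form PRDM16mut had been added. They were taken by symbol from a list of 42 names, out of 24178 symbols listed in at least 1 of 3 tables of RNA-sequencing values. Of the 42, 29 write or help to write a methyl mark and 13 remove one. All 42 were found in the table of the MLL-AF9 cotransduction and 41 in each of the other tables, where Setd1b was not analysed. Every gene found passed the filter on low values.

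The 12 libraries form 6 groups of 2. In the MLL-AF9 cotransduction, Lin- (lineage-negative) marrow cells of C57BL/6 mice were transduced with MLL-AF9 and PRDM16, or with MLL-AF9 and PRDM16mut. In the E2A-HLF cotransduction the same kind of cell was transduced with E2A-HLF and PRDM16, or with E2A-HLF and PRDM16mut. The MLL-AF9 stable cells are marrow cells of that strain with MLL-AF9 already in place, to which PRDM16 or PRDM16mut was then added. The cotransduced cells were selected for 10 days with G418 and puromycin and the stable cells for 10 days with puromycin, all in medium with IL3, IL6 and SCF. All 12 libraries thus come from cells with a fusion oncogene and some form of PRDM16, and no group without either form is among them. The change carried by PRDM16mut, the vectors' promoters and the number of clones or mice behind a group are not stated in the labels.

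Methyl groups on histone lysines mark chromatin states. Methylated H3K4 marks promoters and enhancers in use, H3K36 marks transcribed gene bodies, and H3K9, H3K27 and H4K20 mark silenced or compacted chromatin. Writers transfer the methyl group through a SET domain, often within a complex of shared subunits. Erasers of the JmjC family and the flavin-dependent LSD family remove it. In blood cells these enzymes guard the choice between self-renewal and maturation, and several are mutated or rearranged in leukaemia. PRDM16 has zinc fingers that bind DNA and a PR domain, a relative of the SET domain, and the series presents it as a histone methyltransferase.

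Values are FPKM, the number of fragments scaled to transcript length and to the mapped fragments of the library, a scale on which levels of genes of different length can be set side by side. Changes are log2 fold changes of FPKM plus 1, PRDM16 minus PRDM16mut, with their standard error (SE), and a gene was called at an adjusted p under 0.05 in limma, a linear model with variance shared across genes. Prdm16 measured 83.9 and 119 FPKM with PRDM16 against 29.5 and 30.1 with PRDM16mut in the MLL-AF9 cotransduction (1.71, SE 0.16, adjusted p = 4.18e-04). It measured 49.2 and 56.6 against 56.6 and 43.5 FPKM in the E2A-HLF cotransduction, where the groups overlapped (adjusted p = 0.622; called higher, at 0.27, without PRDM16mut replicate 1). In the stable cells it fell to 77.9 and 79.95 FPKM with PRDM16, against 89.1 and 94.6 with PRDM16mut (adjusted p = 0.0414), a call lost without either PRDM16 library or PRDM16mut replicate 2 (adjusted p from 0.0719 to 0.178). The tables do not separate the introduced transcripts from the endogenous one. In the MLL-AF9 cotransduction the form of PRDM16 and the level of Prdm16 thus differed together, and their parts in the changes below cannot be told apart.

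Markers of cell types moved with PRDM16 in the cotransductions, and those of cell division moved as a list in the MLL-AF9 cotransduction alone. In the MLL-AF9 cotransduction 20 of 20 genes of dividing cells fell, and their FPKM summed to 1214 and 1221 with PRDM16 against 1791 in each PRDM16mut library. There 10 of 10 neutrophil genes fell (sums of 1426 and 1359 against 54424 and 53343) and 7 of 7 mast cell and basophil genes fell (111 and 104 against 2147 and 2130). Of the 8 monocyte and macrophage genes 6 rose and 1 fell (5179 and 5241 against 2153 and 2165.6). Of the erythroid genes tested, 6 of 6 rose (856 and 433 against 161 and 70.6). Of the progenitor markers, Kit and Cd34 fell and Gata2 rose. In the E2A-HLF cotransduction 7 of 8 tested neutrophil genes rose (2098 and 1998 against 676 and 691). Of 7 tested monocyte and macrophage genes 5 rose and 2 fell there (438 and 412 against 109 and 114). The mast cell and basophil list had 4 genes higher and 1 lower of 5 there, the erythroid list 3 and 1 of 8, the progenitor list 1 and 2 of 4, and the dividing-cell list 1 and 3 of 20. In the stable cells 2 of 10 neutrophil genes were lower, 1 of 7 monocyte and macrophage genes was higher, and no gene of the other lists was called. Lymphoid and stromal genes summed to between 2.16 and 24.5 FPKM in all 12 libraries, with Pax5 at 0 throughout; Nkg7, the only gene of that list above the filter, was called higher in the MLL-AF9 cotransduction alone. Xist, which is transcribed from an inactive X chromosome, stood at 46.5 to 60.9 FPKM in the 4 stable-cell libraries and at no more than 0.0641 in the other 8, while the Y-linked demethylases Kdm5d and Uty were at 3.02 FPKM or more in those 8 and at 0.0130 or less in the 4. In RNA from whole cultures, fewer cells of a type and less RNA per cell cannot be told apart, and the part of these shifts in the results below was not tested.

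In the MLL-AF9 cotransduction 22 of the 42 genes fell with PRDM16, 9 rose and 11 were not called. Over all 11071 genes tested there, 34% were called lower and 35.6% higher, and the counts by class given further on are to be read against these shares. The median log2 fold change was -0.20 over the 42 genes and 0.01 over all genes tested. Of the 29 writers and cofactors 17 fell and 5 rose, and of the 13 demethylases 5 fell and 4 rose; whether the kinds differ was not tested. When a trend with transcript length, described further on, was removed, the writers had 11 lower and 8 higher and the demethylases 4 and 4. Called changes of at least 1.5-fold were found for 7 genes, namely Ash2l, Kdm5b, Nsd1, Mll2, Kdm6b, Suz12 and Jmjd1c, which is 16.7% of the set against 32.5% of all genes tested. Of these 7 only Kdm5b was higher with PRDM16. Without PRDM16mut replicate 1 the counts were 5 higher and 15 lower, and without PRDM16mut replicate 2 they were 5 higher and 14 lower.

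In the E2A-HLF cotransduction the changes were smaller. With PRDM16, 9 of 41 genes rose and 3 fell, against 22.7% higher and 21.1% lower of all 11010 genes tested. The median was 0.05, against 0.01 over all genes, and it turned to -0.03 after correction for transcript length and to -0.01 without PRDM16 replicate 2, and the changes ran from -0.33 to 0.47, so that none reached 1.5-fold, against 12.8% of all genes tested that were called with a change of that size. After quantile normalization, which gives all libraries the same distribution of values, 7 were higher and 5 lower. Without PRDM16 replicate 2 the calls were 2 higher and 3 lower, and without PRDM16mut replicate 2 they were 3 higher and 2 lower.

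In the stable cells almost none of these genes differed. Ash2l was the only gene called higher and Smyd5 the only one called lower, of 41, against 4.2% called higher and 2.16% called lower of all 10580 genes tested. At an unadjusted p under 0.05, 3 were higher and 6 lower. Quantile normalization gave 1 higher and 2 lower, and neither call was kept when any 1 of the 4 libraries was left out (adjusted p from 0.0591 to 0.182 for Ash2l and from 0.0731 to 0.148 for Smyd5).

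**Figure D1:**
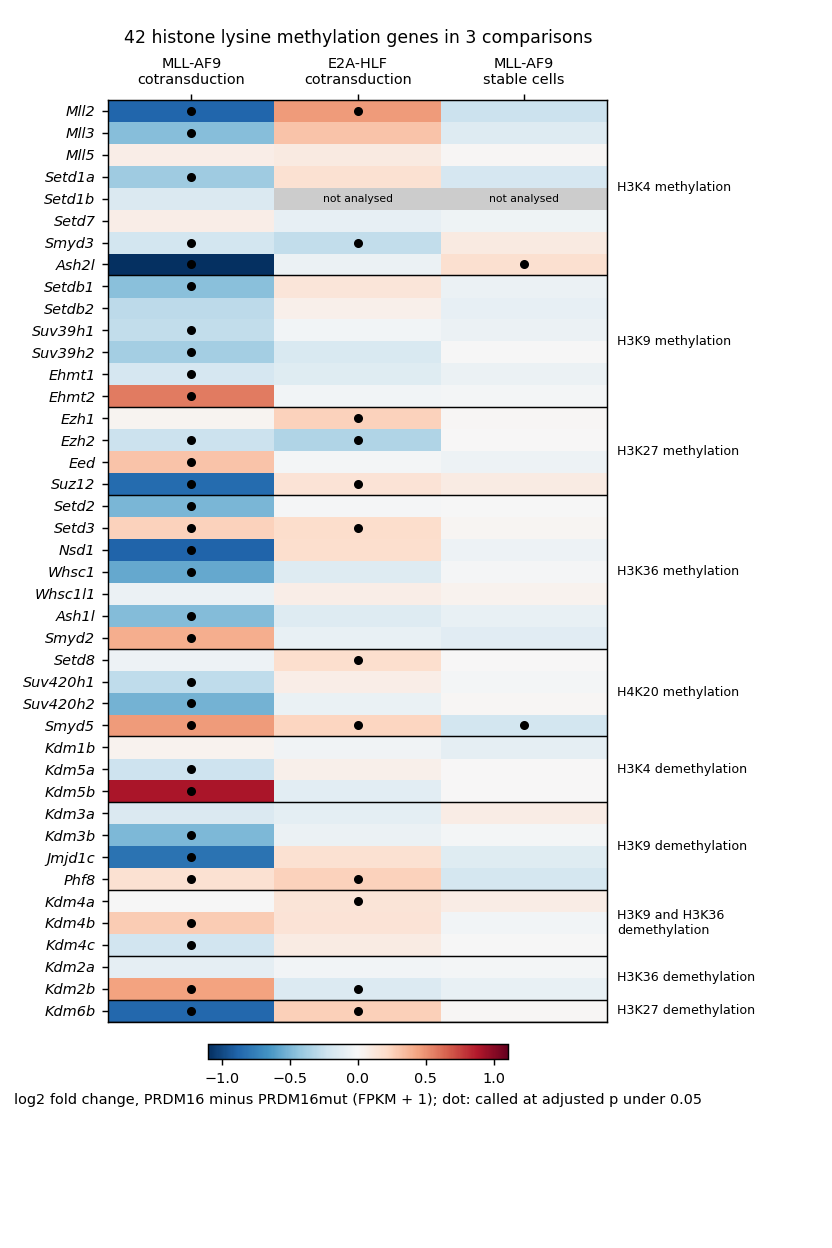
Log2 fold change of FPKM plus 1, PRDM16 minus PRDM16mut, for the 42 genes (rows, grouped by the histone residue acted on) in the 3 comparisons (columns, 2 libraries a group). Red is higher and blue lower with PRDM16, and a dot marks a call at an adjusted p under 0.05: 31 genes carry one in the MLL-AF9 cotransduction, 12 in the E2A-HLF cotransduction and 2 in the stable cells.

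No gene was called in the same direction in all 3 comparisons, which held for 0.644% of the 9475 genes tested in all 3, nor did any move the same way at an unadjusted p under 0.05 in each. Smyd5 was the only one called in all 3 in any direction (2.84% of all genes), higher in both cotransductions and lower in the stable cells. Of the 42, 24 were called in 1 comparison, 9 in 2 and 8 in none. The 8 were Mll5, Setd1b, Setd7, Setdb2, Whsc1l1, Kdm1b, Kdm3a and Kdm2a.

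The writers of H3K4 held the largest decrease of the whole set. Of the 8, 5 fell in the MLL-AF9 cotransduction, none rose, and the median change was -0.30. After correction for transcript length 2 were lower (Ash2l and Mll2) and 2 higher (Mll5 and Setd7), with a median of -0.055. Ash2l encodes a core subunit that every complex of the MLL and SET1 families needs for full activity. It measured 31.1 and 31.5 FPKM with PRDM16 against 67.7 and 68.3 with PRDM16mut in the MLL-AF9 cotransduction (-1.09, SE 0.05, limma adjusted p = 3.45e-05). In the E2A-HLF cotransduction it measured 45.5 and 46.7 against 46.9 and 49.4 FPKM (-0.06, SE 0.05, adjusted p = 0.333). In the stable cells it measured 80.2 and 79.0 against 69.3 and 71.4 FPKM (0.18, SE 0.03, adjusted p = 0.0379). Both PRDM16 libraries thus lay far below both mutant libraries in the first comparison, just below them in the second and above them in the third, where the call was lost when any 1 library was left out. The effects in the MLL-AF9 cotransduction and the stable cells differed by -1.27 (SE 0.05, adjusted p = 2.39e-08).

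Mll2 and Mll3 encode large enzymes that place a single methyl group on H3K4 at enhancers, and both are tumour suppressors in several human cancers. RefSeq lists Mll2 as an older name of Kmt2b and of Kmt2d; the tables hold Wbp7, another older name of Kmt2b, as a separate entry, and Mll2 is read here as Kmt2d. Mll2 measured 2.46 and 2.71 FPKM with PRDM16 against 5.50 and 5.59 with PRDM16mut in the MLL-AF9 cotransduction (-0.87, SE 0.07, adjusted p = 1.94e-04). In the E2A-HLF cotransduction it measured 5.04 and 6.09 against 4.42 and 3.12 FPKM (0.47, SE 0.15, adjusted p = 0.0441), and in the stable cells 4.80 and 5.11 against 5.82 and 6.22 FPKM (-0.24, SE 0.05, adjusted p = 0.0604). The groups did not overlap in any of the 3, with PRDM16 lower in both MLL-AF9 experiments and higher in the E2A-HLF one. The E2A-HLF call was lost without PRDM16 replicate 2 (0.35, adjusted p = 0.106) and without PRDM16mut replicate 2 (0.27, adjusted p = 0.108). The effect of PRDM16 on Mll2 differed by -1.34 between the MLL-AF9 and the E2A-HLF cotransductions (SE 0.16, adjusted p = 3.43e-05) and by -0.71 between the stable cells and the E2A-HLF cotransduction (SE 0.16, adjusted p = 0.00716).

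Mll3 measured 2.54 and 2.76 FPKM with PRDM16 against 3.94 and 4.16 with PRDM16mut in the MLL-AF9 cotransduction (-0.47, SE 0.07, adjusted p = 0.00196). It measured 3.48 and 4.41 against 3.18 and 2.77 FPKM in the E2A-HLF cotransduction (0.31, adjusted p = 0.0613), and 3.39 and 3.57 against 3.94 and 3.95 FPKM in the stable cells (adjusted p = 0.135). As for Mll2, both PRDM16 libraries were the lower ones in the MLL-AF9 experiments and the higher ones in the E2A-HLF experiment, where Mll3 was called higher without PRDM16 replicate 1 (0.44) or PRDM16mut replicate 1 (0.38). The effects in the stable cells and the E2A-HLF cotransduction differed by -0.45 (SE 0.12, adjusted p = 0.0158), a call lost without stable-cell PRDM16 replicate 1 (-0.42, adjusted p = 0.0543) or E2A-HLF PRDM16mut replicate 2 (-0.38, adjusted p = 0.0636). Setd1a, the catalytic subunit of a SET1 complex that trimethylates H3K4 at promoters, also fell in the MLL-AF9 cotransduction (-0.39, adjusted p = 0.0133), though not without PRDM16mut replicate 2; with E2A-HLF it was called higher without PRDM16mut replicate 1 (0.27, against 0.17 with all 4 libraries). Its paralog Setd1b measured 6.32 and 7.39 against 7.65 and 7.91 FPKM in the MLL-AF9 cotransduction (-0.16, adjusted p = 0.136) and was called lower there without PRDM16 replicate 2 (-0.26, adjusted p = 0.00830).

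Smyd3, a SET and MYND domain enzyme reported to act on H3K4, was lower with PRDM16 in both cotransductions. It measured 3.90 and 4.05 FPKM with PRDM16 against 4.61 and 4.82 with PRDM16mut in the MLL-AF9 cotransduction (-0.20, SE 0.06, adjusted p = 0.0320). With E2A-HLF it measured 5.86 and 5.94 against 7.20 and 7.44 FPKM (-0.27, SE 0.05, adjusted p = 0.00878). In the stable cells the order was the opposite, 5.96 and 5.77 against 5.53 and 5.33 FPKM, without a call (adjusted p = 0.221). The call in the MLL-AF9 cotransduction was lost without PRDM16mut replicate 1 (adjusted p = 0.146) or replicate 2 (adjusted p = 0.261). Mll5, a SET domain protein with little known catalytic activity, and Setd7, a monomethyltransferase, lay between -0.09 and 0.10 in every comparison. After correction for transcript length both were called higher in the MLL-AF9 cotransduction (0.28, adjusted p = 0.00657, and 0.29, adjusted p = 0.00833) and Setd7 lower in the E2A-HLF cotransduction (-0.14, adjusted p = 0.0188).

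Of the 3 H3K4 demethylases, 1 rose and 1 fell in the MLL-AF9 cotransduction. Kdm5b removes methyl groups from trimethylated H3K4. It measured 10.6 and 10.8 FPKM with PRDM16 against 5.19 and 5.32 with PRDM16mut in the MLL-AF9 cotransduction (0.90, SE 0.06, adjusted p = 9.97e-05), the largest increase of the set. It measured 14.1 and 15.3 against 15.7 and 16.3 FPKM in the E2A-HLF cotransduction (-0.12, adjusted p = 0.155) and 8.92 and 8.95 against 8.93 and 8.87 FPKM in the stable cells (0.00, adjusted p = 0.942). The PRDM16 libraries thus stood well above the mutant ones with MLL-AF9, just below them with E2A-HLF and among them in the stable cells. The effects in the MLL-AF9 cotransduction and the stable cells differed by 0.90 (SE 0.07, adjusted p = 1.11e-06). Its paralog Kdm5a fell in the MLL-AF9 cotransduction (-0.23, adjusted p = 0.0258), a call lost without either PRDM16mut library and after correction for transcript length (0.072, adjusted p = 0.429). Kdm1b, a flavin-dependent H3K4 demethylase, lay between -0.10 and 0.04 in all 3.

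**Figure D2:**
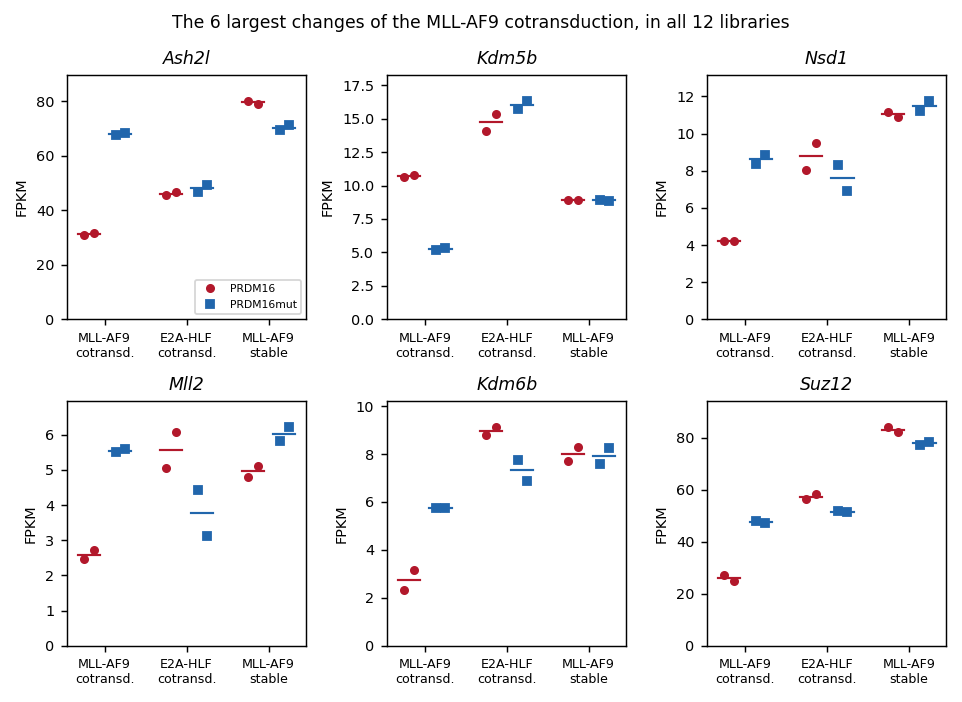
FPKM (linear axis from 0) of the 6 genes with the largest called change in the MLL-AF9 cotransduction, in all 12 libraries; each point is 1 library and each bar the mean of 2. PRDM16 (red circles) and PRDM16mut (blue squares) lie far apart in the MLL-AF9 cotransduction, and their means lie closer together in the other experiments for all 6 genes.

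H3K27 is methylated by Polycomb repressive complex 2 (PRC2), in which Ezh2 or Ezh1 is the catalytic subunit, Suz12 the scaffold and Eed the subunit that binds the finished mark. The 4 subunits did not move together. Suz12 measured 27.4 and 24.8 FPKM with PRDM16 against 47.9 and 47.3 with PRDM16mut in the MLL-AF9 cotransduction (-0.85, SE 0.07, adjusted p = 2.06e-04). Among E2A-HLF libraries it measured 56.2 and 58.1 against 51.6 and 51.5 FPKM (0.15, SE 0.04, adjusted p = 0.0331), and in the stable cells 84.0 and 82.1 against 77.3 and 78.3 FPKM (0.09, SE 0.03, adjusted p = 0.112). Suz12 was therefore clearly lower with PRDM16 in 1 experiment and slightly higher in the other 2, without overlap of the groups in any. The effect in the MLL-AF9 cotransduction differed from that in the E2A-HLF cotransduction by -0.99 (SE 0.07, adjusted p = 2.86e-07) and from that in the stable cells by -0.94 (SE 0.07, adjusted p = 7.50e-07). The E2A-HLF call for Suz12 was lost when any 1 of the 4 libraries was left out (0.12 to 0.17, adjusted p from 0.0726 to 0.195) and after quantile normalization (adjusted p = 0.248).

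Ezh2 fell in both cotransductions. It measured 28.6 and 26.8 FPKM with PRDM16 against 32.8 and 32.5 with PRDM16mut in the MLL-AF9 cotransduction (-0.23, SE 0.06, adjusted p = 0.0155). With E2A-HLF it measured 39.8 and 37.7 against 48.0 and 49.9 FPKM (-0.33, SE 0.05, adjusted p = 0.00277). Among stable-cell libraries it measured 41.8 and 42.9 against 42.5 and 41.995 FPKM, with overlapping groups (0.00, adjusted p = 0.948). The call in the MLL-AF9 cotransduction was lost without PRDM16mut replicate 1 (adjusted p = 0.165) or replicate 2 (adjusted p = 0.151); the one in the E2A-HLF cotransduction was not lost by leaving out any library. The summed dividing-cell markers were lower with PRDM16 in the MLL-AF9 cotransduction, and were 1914 and 1874 FPKM with PRDM16 against 1905 and 1952 with PRDM16mut in the E2A-HLF one; their part in the Ezh2 values was not tested.

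Ezh1, the paralog typical of cells that divide little, measured 7.66 and 8.48 FPKM with PRDM16 against 7.87 and 7.92 with PRDM16mut in the MLL-AF9 cotransduction (0.03, adjusted p = 0.741). It rose to 7.65 and 7.22 FPKM in the E2A-HLF cotransduction, against 6.30 and 5.85 with PRDM16mut (0.25, SE 0.06, adjusted p = 0.0195), and stood at 6.30 and 6.29 against 6.49 and 5.96 FPKM in the stable cells (adjusted p = 0.879). Only the E2A-HLF groups were apart, and that call was lost without PRDM16 replicate 1 (adjusted p = 0.0646) or PRDM16mut replicate 2 (adjusted p = 0.0935). The ratio of Ezh2 to Ezh1, both in FPKM, was 5.20 and 5.22 with PRDM16 against 7.61 and 8.54 with PRDM16mut in the E2A-HLF cotransduction. It was 3.73 and 3.15 against 4.16 and 4.11 in the MLL-AF9 cotransduction, and 6.64 and 6.83 against 6.55 and 7.05 in the stable cells. The PRDM16 libraries thus had the lower ratio in both cotransductions, and the groups overlapped in the stable cells.

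Eed measured 34.1 and 31.2 FPKM with PRDM16 against 26.3 and 26.0 with PRDM16mut in the MLL-AF9 cotransduction (0.31, SE 0.06, adjusted p = 0.00762), opposite to Suz12 and Ezh2. Among E2A-HLF libraries it measured 29.4 and 28.2 against 28.2 and 30.2 FPKM (adjusted p = 0.760), and in the stable cells 22.7 and 22.4 against 24.6 and 22.6 FPKM (adjusted p = 0.430). The call was lost without PRDM16mut replicate 1 (adjusted p = 0.0703) or replicate 2 (adjusted p = 0.0823). The ratio of Suz12 to Eed, both in FPKM, was 0.802 and 0.794 with PRDM16 against 1.83 and 1.82 with PRDM16mut in the MLL-AF9 cotransduction. It was 1.91 and 2.06 against 1.83 and 1.70 in the E2A-HLF cotransduction, and 3.70 and 3.66 against 3.15 and 3.46 in the stable cells. The 2 libraries of MLL-AF9 with PRDM16 were the only ones of the 12 with less Suz12 than Eed.

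**Figure D3:**
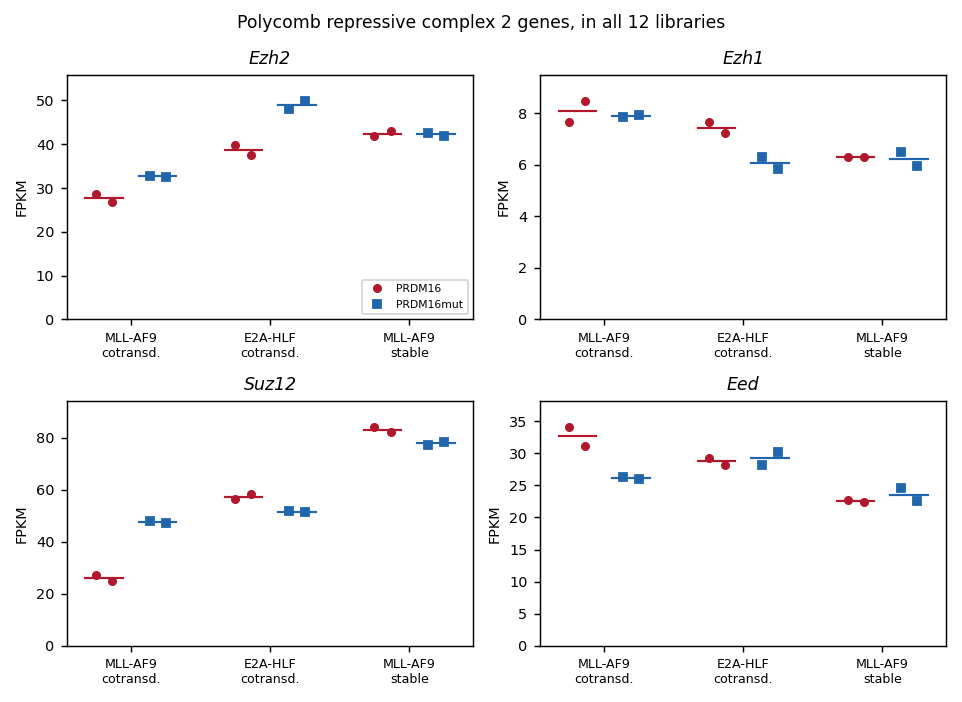
FPKM (linear axes from 0) of the 4 PRC2 genes in all 12 libraries; each point is 1 library and each bar the mean of 2, with PRDM16 in red circles and PRDM16mut in blue squares. In the MLL-AF9 cotransduction Suz12 was lower and Eed higher with PRDM16, and in the E2A-HLF cotransduction Ezh2 was lower and Ezh1 higher.

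Kdm6b removes methyl groups from H3K27 and is induced in activated myeloid cells. It measured 2.32 and 3.15 FPKM with PRDM16 against 5.76 and 5.74 with PRDM16mut in the MLL-AF9 cotransduction (-0.86, SE 0.12, adjusted p = 0.00158). With E2A-HLF it measured 8.81 and 9.13 against 7.76 and 6.87 FPKM (0.26, SE 0.07, adjusted p = 0.0246). Among stable-cell libraries it measured 7.69 and 8.30 against 7.60 and 8.27 FPKM, with overlapping groups (adjusted p = 0.923). The 2 cotransductions were called in opposite directions, and the effects differed by -1.13 (SE 0.14, adjusted p = 3.06e-05). The E2A-HLF call was lost without PRDM16 replicate 2 (adjusted p = 0.0704) or PRDM16mut replicate 2 (adjusted p = 0.104). In both cotransductions the summed neutrophil markers moved in the same direction as Kdm6b. The summed monocyte and macrophage markers moved the opposite way to Kdm6b with MLL-AF9 (5179 and 5241 FPKM with PRDM16 against 2153 and 2165.6 with PRDM16mut). With E2A-HLF these sums moved in the same direction as Kdm6b, although 2 of the 7 genes tested were called lower. The part of either list in the Kdm6b values was not tested. The non-coding gene Kdm6bos overlaps Kdm6b on the opposite strand, and the library kit, TruSeq v2 per the labels, keeps no strand. Reads from the bases that the 2 share cannot be told apart, and the length of the overlap was not measured.

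Of the 6 writers of H3K9, 4 fell and 1 rose in the MLL-AF9 cotransduction, and none was called in either of the others. The largest decrease was that of Setdb1, which trimethylates H3K9 at silenced repeats together with Trim28, at 7.80 and 8.24 FPKM with PRDM16 against 11.4 in both PRDM16mut libraries (-0.46, SE 0.06, adjusted p = 0.00131). Suv39h1 and Suv39h2, the paired enzymes of constitutive heterochromatin, changed by -0.27 and -0.38 (adjusted p = 0.00873 and 0.00442). Ehmt1 and Ehmt2, which act as a joint enzyme on H3K9 in euchromatin, went in opposite directions. Ehmt1 measured 9.38 and 9.55 against 11.0 and 10.8 FPKM (-0.18, adjusted p = 0.0303), and Ehmt2 47.9 and 56.6 against 34.9 and 34.3 FPKM (0.58, SE 0.09, adjusted p = 0.00264). Both PRDM16 libraries were thus low for one partner and high for the other. The calls for Suv39h1 and Ehmt1 were lost without either PRDM16mut library. After correction for transcript length Ehmt1 stood at -0.03 without a call (adjusted p = 0.678) and Ehmt2 at 0.60 (adjusted p = 0.00149). Setdb2 was called in none of the 3 (-0.28, 0.05 and -0.09), but without PRDM16 replicate 1 it was called lower in the MLL-AF9 cotransduction (-0.45, adjusted p = 0.00678), as it was with a spread shared over all 12 libraries (adjusted p = 0.0266).

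Of the 4 genes grouped here as demethylases of H3K9, 2 fell and 1 rose in the MLL-AF9 cotransduction. The grouping does not mean that they act on no other residue. Jmjd1c, a JmjC protein of the Kdm3 family required by MLL-AF9 leukaemia cells in mice, measured 5.16 and 5.17 FPKM with PRDM16 against 9.49 and 10.1 with PRDM16mut (-0.81, SE 0.06, adjusted p = 1.97e-04). Kdm3b, another member of that family, changed by -0.50 (SE 0.06, adjusted p = 8.00e-04), while Kdm3a was not called (-0.16, adjusted p = 0.0566; called lower, at -0.20, without PRDM16 replicate 2). Jmjd1c measured 10.1 and 11.0 against 9.63 and 8.98 FPKM with E2A-HLF (0.16, adjusted p = 0.0808). Among stable-cell libraries Jmjd1c measured 20.2 and 19.5 against 21.5 and 22.1 FPKM (-0.13, adjusted p = 0.0822), so its PRDM16 libraries were the lower ones in both MLL-AF9 experiments and the higher ones with E2A-HLF.

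Phf8, an X-linked demethylase of H3K9, rose in both cotransductions. It measured 6.70 and 7.01 FPKM with PRDM16 against 5.96 and 5.99 with PRDM16mut with MLL-AF9 (0.17, SE 0.06, adjusted p = 0.0470), and 8.08 and 8.59 against 6.89 and 6.71 FPKM with E2A-HLF (0.26, SE 0.06, adjusted p = 0.0130). Among stable-cell libraries it measured 4.64 and 4.91 against 5.52 and 5.66 FPKM (-0.19, SE 0.05, adjusted p = 0.0744). The PRDM16 libraries were the higher ones in both cotransductions and the lower ones in the stable cells. The effects in the stable cells and the E2A-HLF cotransduction differed by -0.45 (SE 0.07, adjusted p = 5.95e-04). The MLL-AF9 call was lost without PRDM16 replicate 2 or either PRDM16mut library (adjusted p from 0.0549 to 0.275), and the E2A-HLF call without replicate 2 of either group (adjusted p = 0.0571 and 0.0566).

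The Kdm4 enzymes, which demethylate both H3K9 and H3K36, split. In the MLL-AF9 cotransduction Kdm4b was called higher (0.28, adjusted p = 0.0231) and Kdm4c lower (-0.21, adjusted p = 0.0223), both lost without either PRDM16mut library, and Kdm4a stood at 0.00. Among E2A-HLF libraries Kdm4a alone was called (0.14, adjusted p = 0.0488), and any 1 library left out ended that call.

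H3K36 has 7 writers in the set; with MLL-AF9 cotransduced, 4 fell and 2 rose, and their median change was -0.48. After correction for transcript length 3 were lower and 3 higher, at a median of -0.17. Nsd1, which places dimethylated H3K36 and is fused to NUP98 in human leukaemia, measured 4.23 FPKM in both PRDM16 libraries against 8.37 and 8.84 with PRDM16mut (-0.88, SE 0.06, adjusted p = 1.39e-04). It measured 8.05 and 9.51 against 8.32 and 6.93 FPKM in the E2A-HLF cotransduction (0.18, adjusted p = 0.211) and 11.2 and 10.9 against 11.2 and 11.8 FPKM in the stable cells (-0.06, adjusted p = 0.399). The groups overlapped in the E2A-HLF cotransduction, and its effect differed from that in the MLL-AF9 cotransduction by -1.06 (SE 0.12, adjusted p = 1.68e-05). Without PRDM16 replicate 1 or PRDM16mut replicate 1, Nsd1 was called higher in the E2A-HLF cotransduction (0.29 and 0.30, adjusted p = 0.0474 and 0.0492).

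Among the relatives of Nsd1, Whsc1 fell in the MLL-AF9 cotransduction (-0.56, SE 0.05, adjusted p = 4.60e-04) and Whsc1l1 was not called (-0.06, adjusted p = 0.365). Setd2, the enzyme of trimethylated H3K36 in transcribed genes, measured 7.49 and 7.87 FPKM with PRDM16 against 11.0 and 11.7 with PRDM16mut (-0.51, SE 0.06, adjusted p = 0.00127), and Ash1l changed by -0.48 (adjusted p = 0.00135; -0.17 and adjusted p = 0.0540 after correction for transcript length). Smyd2 rose (0.40, adjusted p = 0.00447), and so did Setd3 (0.25, adjusted p = 0.0107), which was first described as a histone methyltransferase and is now known to methylate actin. Setd3 also rose in the E2A-HLF cotransduction (0.20, adjusted p = 0.0145), where it was the only H3K36 writer called; the first of these calls was lost without either PRDM16mut library and the second without PRDM16 replicate 2. None of the 7 was called in the stable cells.

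Kdm2b demethylates H3K36 and brings a Polycomb complex to CpG islands. It rose to 22.6 and 23.7 FPKM with PRDM16 in the MLL-AF9 cotransduction, against 16.8 and 16.7 with PRDM16mut (0.44, SE 0.06, adjusted p = 0.00120). It fell to 23.8 and 24.0 FPKM in the E2A-HLF cotransduction, against 26.7 and 26.6 with PRDM16mut (-0.15, SE 0.04, adjusted p = 0.0284). The opposite effects differed by 0.59 (SE 0.05, adjusted p = 3.86e-06), although the E2A-HLF call was lost when any 1 library was left out. The paralog Kdm2a lay between -0.10 and -0.02 in all 3 comparisons and was called lower in the MLL-AF9 cotransduction (-0.14) without PRDM16 replicate 2.

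On H4K20, Setd8 places the first methyl group and the Suv420h enzymes add to it. Suv420h2 measured 16.6 and 20.1 FPKM with PRDM16 against 26.2 and 27.1 with PRDM16mut in the MLL-AF9 cotransduction (-0.52, SE 0.10, adjusted p = 0.00523), and Suv420h1 changed by -0.28 (adjusted p = 0.00882), a call lost without either PRDM16mut library. Setd8 was not called there (-0.06; called lower, at -0.10, without PRDM16 replicate 2) and rose in the E2A-HLF cotransduction (0.19, adjusted p = 0.0120), a call lost without either PRDM16 library. Smyd5, reported to trimethylate H4K20 in mouse cells, measured 20.3 and 24.1 FPKM with PRDM16 against 16.0 and 15.5 with PRDM16mut in the MLL-AF9 cotransduction (0.47, SE 0.09, adjusted p = 0.00631). It measured 21.1 in both PRDM16 libraries against 17.4 and 18.2 FPKM in the E2A-HLF cotransduction (0.24, SE 0.05, adjusted p = 0.00919), and 20.4 and 20.6 against 23.6 and 23.9 FPKM in the stable cells (-0.20, SE 0.03, adjusted p = 0.0297). The mutant libraries thus lay below the PRDM16 libraries in the cotransductions and above them in the stable cells, where the call was lost when any 1 library was left out. The effect in the MLL-AF9 cotransduction differed from that in the stable cells by 0.67 (SE 0.09, adjusted p = 1.12e-04), and that in the stable cells from that in the E2A-HLF cotransduction by -0.44 (SE 0.09, adjusted p = 0.00426).

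Across the 41 genes tested in every experiment, the effect of PRDM16 differed between the MLL-AF9 and the E2A-HLF cotransductions for 28, being more negative with MLL-AF9 for 21 and more positive for 7. Such a difference was called for 71.4% of all 9475 genes. Between the MLL-AF9 cotransduction and the stable cells it differed for 29 (20 more negative and 9 more positive in the cotransduction; 64% of all genes), and between the stable cells and the E2A-HLF cotransduction for 13 (10 and 3; 37% of all genes). The members' counts of differing effects thus lie near the shares over all genes. Mll2, Suz12, Kdm2b and Kdm6b were called in opposite directions in the 2 cotransductions, and Smyd3, Ezh2, Setd3, Smyd5 and Phf8 in the same direction.

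Many of these genes have long transcripts, and transcript length went with the direction of change in the MLL-AF9 cotransduction. Of all 1290 genes tested there with a longest transcript of 6 kb or more, 53.6% fell and 21.9% rose. Of the 2796 genes under 2 kb, 22.4% fell and 48.9% rose. Of the 20 members of 6 kb or more, 13 fell and 2 rose, so their share is set beside that of other long genes rather than of all genes. Within each library, the median deviation of long genes less that of short genes was -0.23 and -0.22 (log2) with PRDM16 against 0.20 and 0.24 with PRDM16mut in that experiment, and between -0.09 and 0.10 in the other 8. Of those 8, the stable-cell libraries had the same order at a smaller size, -0.04 in both with PRDM16 against 0.05 and 0.03 with PRDM16mut. Among stable-cell genes under 2 kb 6.79% rose and 1.35% fell, and among those of 6 kb or more 1.58% rose and 3.57% fell. When the length trend of each library was removed, an alternative chosen after the data were seen, 12 members were higher and 15 lower in the MLL-AF9 cotransduction, and their median was -0.08. Under it Mll2 stood at -0.45 (adjusted p = 0.00160) and Nsd1 at -0.54 (adjusted p = 6.09e-04), both still called, Mll3 at -0.10 (adjusted p = 0.187) and Smyd3 at -0.01 (adjusted p = 0.894). Ash2l (-1.09), Suz12 (-0.80), Kdm6b (-0.68) and Kdm5b (1.15) also kept their calls. Calls were lost for 7 members, namely Mll3, Smyd3, Setd1a (-0.22), Ehmt1 (-0.03), Ash1l (-0.17), Suv420h1 (-0.11) and Kdm5a (0.072), and gained, all as higher, for Mll5 (0.28), Setd7 (0.29) and Whsc1l1 (0.22). The same step gave 12 higher and 9 lower in the E2A-HLF cotransduction, against 9 and 3 without it, with Mll3, Setdb1 and Kdm4b newly called higher and Setd7, Suv39h2, Ehmt1, Whsc1, Ash1l and Kdm5b newly called lower. The source of the trend with length was not tested.

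**Figure D4:**
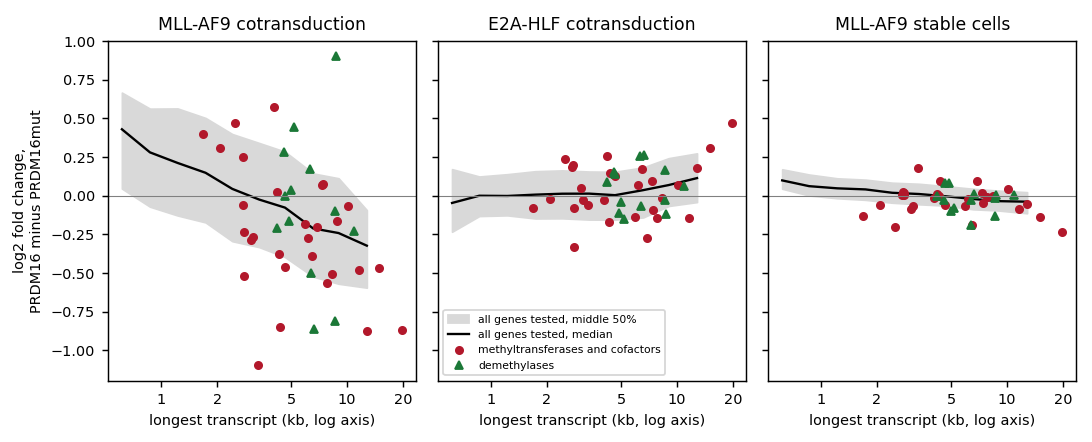
Log2 fold change, PRDM16 minus PRDM16mut (y axis), against the longest annotated transcript of a gene in kb (x axis, log scale) for methyltransferases and cofactors (red circles) and demethylases (green triangles); the black line is the median and the grey band the middle 50% of all genes tested, in bins of at least 20 genes. In the MLL-AF9 cotransduction the line falls with length and Ash2l, at -1.09, lies far below it while Kdm5b, at 0.90, lies far above it. The line falls less in the stable cells, from 0.10 in the bin of shortest genes to -0.04 in that of the longest. In the E2A-HLF cotransduction it runs from -0.05 to 0.11.

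The promoters of these genes were read for E2F motifs, since E2F factors drive genes of cell division and the dividing-cell markers moved in 1 experiment. RefSeq promoter windows (GRCm38.p6, 250 bases before to 50 after the gene start) were at hand for 29 of the 42. The motifs searched, on both strands, were TTTCCCGC, TTTGGCGC, TTTCGCGC and TTTGCCGC, which share their length and differ in inner letters, so a stretch matches at most 1 of them on a strand; matches on opposite strands can overlap, and a promoter was counted once. Of the 29, 4 held a match (13.8%), against 583 of 17614 symbols of the tables with a window (3.31%). By window the shares were 4 of 42 (9.52%) and 614 of 21274 (2.89%), since some genes have more than 1. The symbols include genes below the filter on low values, which all members passed, so the shares are not like for like and were not tested. The 4 genes were Suv39h1, Ezh2, Suz12 and Suv420h2, all lower with PRDM16 in the MLL-AF9 cotransduction, where 14 members with a window were lower, 8 higher and 7 not called. Their stretches are shown because they hold the shared letters, in capitals, 5′ to 3′ on the strand of the gene. Counting the first base of the gene as 0, the match starts at -64 in Suv39h1 (chrX:8074388-8074455, minus strand), at 3 in Ezh2 (chr6:47595001-47595057, minus strand), at -219 in Suz12 (chr11:79992857-79992924, plus strand) and at -105 in Suv420h2 (chr7:4739992-4740059, plus strand).
Suv39h1: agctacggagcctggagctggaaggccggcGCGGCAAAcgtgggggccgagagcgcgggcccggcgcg
Ezh2: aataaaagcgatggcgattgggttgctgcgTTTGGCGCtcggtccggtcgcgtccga
Suz12: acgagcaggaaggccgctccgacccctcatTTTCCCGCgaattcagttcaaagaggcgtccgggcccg
Suv420h2: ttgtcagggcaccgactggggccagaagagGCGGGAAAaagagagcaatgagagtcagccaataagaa
The same 4 genes did not share a direction in the E2A-HLF cotransduction, where Ezh2 fell, Suz12 rose and the other 2 were not called. A match is a run of letters and not a measured site.

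By level, over all libraries in which each was measured and with the tables normalised separately, Ash2l (median 58.5 FPKM), Setd8 (57.1), Suz12 (53.9), Ehmt2 (45.0) and Ezh2 (40.8) were the most abundant of the set. Mll3 (3.53), Kdm1b (3.71), Ash1l (4.72), Setdb2 (5.07) and Mll2 (5.08) were the least. The ranges of neighbours in this order overlap: Ash2l ran from 31.1 to 80.2 FPKM and Suz12 from 24.8 to 84.0, and Setd8 from 40.7 to 66.0. Ezh1, at 5.85 to 8.48 FPKM, lay far below the other PRC2 genes. Mll2 was read at 2.46 to 6.22 FPKM, where a fold change of FPKM plus 1 understates the change most. Exons of Ash1l, Kdm1b, Kdm2b, Mll5, Setdb1, Suv39h2 and Whsc1 overlap those of the coding genes Dap3, Dek, Rnf34, Srpk2, Cers2, Dclre1c and Nelfa on the opposite strand, in the same order. Setd1a overlaps the coding gene Gm49388 on the same strand. Non-coding genes overlap further members, among them Suz12 (Gm26563) and Ezh2 (Gm26625). Reads from the shared bases cannot be told apart, and the length of the overlaps was not measured.

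Partners of these enzymes were read against the same shares of all genes, 35.6% higher and 34% lower in the MLL-AF9 cotransduction, 22.7% and 21.1% in the E2A-HLF cotransduction, and 4.2% and 2.16% in the stable cells. Of 13 partners of the H3K4 writers, 9 fell and 1 rose in the MLL-AF9 cotransduction. The counts of partners, here and below, were not corrected for the trend with transcript length. In the MLL-AF9 cotransduction 53.6% of all genes of 6 kb or more fell, so its part in these counts was not tested. Mll1, the gene whose human counterpart is broken in MLL fusions, measured 2.41 and 2.80 FPKM with PRDM16 against 6.44 and 6.65 with PRDM16mut (-1.07, adjusted p = 1.53e-04). Hcfc2 (-0.76) and Hcfc1 (-0.73), subunits of MLL and SET1 complexes, fell as well, and Men1, which tethers MLL to its targets and is named here after its value was seen, was the 1 that rose (0.51). With E2A-HLF 1 rose (Hcfc2, 0.53) and 2 fell (Psip1, -0.27, and Wdr82, -0.19), and in the stable cells Hcfc1 (-0.24) and Wbp7 (-0.21) fell. The effect on Hcfc2 differed by -1.29 between the cotransductions (SE 0.07, adjusted p = 4.98e-08). The calls for Hcfc1 and Wbp7 were lost when any 1 stable-cell library was left out, and that for Wdr82 without either PRDM16 library or PRDM16mut replicate 2.

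Of 26 Polycomb partners, 8 rose and 9 fell in the MLL-AF9 cotransduction, 4 rose and 11 fell in the E2A-HLF cotransduction, and none of 25 was called in the stable cells. The MLL-AF9 counts lie near the shares over all genes. Several of them had opposite effects in the 2 cotransductions. Jarid2, which guides PRC2 to its targets, measured 5.32 and 5.62 FPKM with PRDM16 against 11.9 in both PRDM16mut libraries with MLL-AF9 (-0.99), and 11.96 and 12.6 against 9.87 and 9.79 FPKM with E2A-HLF (0.29), a difference of -1.28 (SE 0.06, adjusted p = 2.79e-08). Phf19, another PRC2 accessory subunit, differed by -1.55 between them (-0.75 and 0.80; adjusted p = 4.29e-08). Cbx2 and Phc1, subunits of Polycomb complex PRC1, went the other way, at 1.21 with MLL-AF9 against -0.54 with E2A-HLF for Cbx2 (difference 1.74, adjusted p = 1.84e-08) and 1.28 against -0.60 for Phc1 (difference 1.88, adjusted p = 1.86e-08). Pcgf5 fell in both (-1.36 and -0.34).

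Of 11 partners and readers of H3K9 methylation, 7 fell and 2 rose in the MLL-AF9 cotransduction, led by Dnmt1 (-0.82), Uhrf1 (-0.54) and Cbx5 (-0.57), which copy DNA methylation or bind methylated H3K9. Among E2A-HLF libraries 1 rose and 4 fell, among them Cbx1 (-0.29), Trim28 (-0.31) and Zfp644 (-0.28), and in the stable cells Trim28 (-0.20) and Uhrf1 (-0.17) fell, though not when any 1 library was left out. Trim28 rose in the MLL-AF9 cotransduction (0.44), and its effect there differed by 0.75 from that with E2A-HLF (adjusted p = 1.96e-05) and by 0.64 from that in the stable cells (adjusted p = 8.69e-05). Of the other methyltransferases and demethylases that are not among the 42, 4 of 18 rose and 7 fell in the MLL-AF9 cotransduction, with Kdm1a, the H3K4 demethylase LSD1, higher (0.61) and Jhdm1d (-0.73) and Prdm2 (-0.53) lower. With E2A-HLF 2 of 19 rose and 2 fell (among them Jmjd6, 0.48, Setd4, -0.42, and Kdm1a, -0.19), and in the stable cells none of 18 was called. The effects with MLL-AF9 and E2A-HLF differed by 0.80 for Kdm1a (adjusted p = 3.87e-06) and by -0.76 for Jmjd6 (adjusted p = 7.68e-06), which measured -0.29 with MLL-AF9. The Kdm1a call with E2A-HLF was lost without either PRDM16 library or PRDM16mut replicate 2, and the Jmjd6 call with MLL-AF9 without either PRDM16mut library. The adjusted p-values from limma of the partners chosen by their p ran from 2.23e-05 to 0.0465. The dividing-cell list fell in the same libraries as Dnmt1 and Uhrf1, which are also genes of dividing cells, and its part in their change was not tested.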

How the data were processed

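RNA was measured in 12 libraries of transduced mouse bone marrow cells, 2 per group. The authors deposited FPKM per gene in 3 tables. Per the labels' protocols, libraries were made with oligo(dT) and TruSeq v2. The submitters' processing notes name TopHat2 2.0.3, Bowtie2 2.0.0.7, Cuffdiff, with no version, and the mm9 build. No read counts were used, so depth per library is unknown and no counting interval is given; deposited FPKM summed to 570872 to 683269 per library, with 10455 to 10823 genes at 1 FPKM or more. The labels do not say that replicates came from separate cultures, so p-values measure the spread between these libraries.

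Within each table, genes at 1 FPKM or more in at least 2 of 4 libraries were tested with limma 3.58.1 (R 4.3.3, variance trend) on log2(FPKM + 1), two-sided, with Benjamini-Hochberg adjustment over all genes. With 2 against 2, an exact permutation test cannot go below p = 0.333. Differences between effects came from 1 fit of all 12 libraries over 9475 genes. The procedure was also run on simulated data with few changed genes and no trend with transcript length. That setting is unlike the MLL-AF9 cotransduction, so the run does not vouch for the calls there. The members, the classes, the lists of partners and cell markers (dividing cells, neutrophil, monocyte and macrophage, mast cell and basophil, erythroid, lymphoid and stromal, progenitor) and the E2F motifs were chosen with earlier results of these data known, so no pattern here is independent support for those results.

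Values in every library were due for the 6 called members with the largest change per comparison, the PRC2 genes, and the 3 members with the largest called differences between experiments; from each partner list at most 3 called genes of smallest p were named. Further members are shown where calls oppose each other. Fold changes of FPKM plus 1 understate changes of low genes. Transcript lengths, of the longest protein-coding transcript, and overlapping genes came from GENCODE annotation, and promoters from RefSeq annotation (GRCm38.p6). All were matched by symbol, with lengths for 95.3% of genes tested with MLL-AF9 cotransduced, 91.1% with E2A-HLF and 90.9% in the stable cells. Coordinates are those of GRCm38.p6, not of mm9. Alternatives were another pseudocount (0.1), no filter, a filter of 5 FPKM, quantile normalization, no variance trend, a replicate block, 1 shared spread, each library left out, and a correction for length.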

Additional observations from a re-analysis of the deposited data

Results flagged for a closer look

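The effect of PRDM16 (log2, PRDM16 minus PRDM16mut) differed between experiments for the genes below, by limma's test of the difference itself with Benjamini-Hochberg adjustment over 9475 genes. Such differences were common, at 71.4%, 64% and 37% of all genes in the 3 contrasts. The level of Prdm16 also differed between the groups of the MLL-AF9 cotransduction, so form and level of PRDM16 cannot be told apart in contrasts with it.

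Between the MLL-AF9 and the E2A-HLF cotransductions, the effect on members of the set differed by -0.99 for Suz12, 0.59 for Kdm2b, -1.06 for Nsd1, -1.13 for Kdm6b and -1.34 for Mll2 (adjusted p from 2.86e-07 to 3.43e-05). For partners of the set it differed by -1.29 for Hcfc2, 1.74 for Cbx2, -1.28 for Jarid2, 0.80 for Kdm1a, -1.55 for Phf19, 1.88 for Phc1, 0.75 for Trim28 and -0.76 for Jmjd6 (adjusted p from 1.84e-08 to 1.96e-05).

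Between the MLL-AF9 cotransduction and the stable cells, it differed by -1.27 for Ash2l, -0.94 for Suz12, 0.90 for Kdm5b, 0.67 for Smyd5 and 0.64 for Trim28 (adjusted p from 2.39e-08 to 1.12e-04).

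Between the stable cells and the E2A-HLF cotransduction, it differed by -0.45 for Phf8, -0.44 for Smyd5, -0.71 for Mll2 and -0.45 for Mll3 (adjusted p from 5.95e-04 to 0.0158).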

How the results depend on the processing

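Of the counts of members called, those of the MLL-AF9 cotransduction and of the differences between experiments stayed within 1.5 times under every setting that kept all libraries. In the E2A-HLF cotransduction 5 members were higher with no filter, against 9, and 5 were lower after quantile normalization, 9 after correction for length and 6 with a shared spread, against 3. In the stable cells none was higher with no filter or without the variance trend (0 each, against 1). Lower there were 0 with no filter, 0 without the trend, 0 with a shared spread and 2 after quantile normalization, against 1. The cause of these shifts was not tested.

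With a library left out, members higher and lower ran from 5 to 9 and from 14 to 26 in the MLL-AF9 cotransduction, from 2 to 10 and from 2 to 3 in the E2A-HLF cotransduction, and stayed at 0 and 0 in the stable cells; such a fit assumes that the lone library varies like the other group. No member was called the same way in all 3 comparisons in any of them (0 to 0). Effects that differed ran from 23 to 28 between the cotransductions, from 26 to 31 between the MLL-AF9 cotransduction and the stable cells, and from 7 to 12 between the stable cells and the E2A-HLF cotransduction.

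With replicate number as a block, 8 members were higher and 22 lower in the MLL-AF9 cotransduction, 7 and 2 in the E2A-HLF cotransduction, and 0 and 3 in the stable cells. Under it Setdb2 was called lower in the MLL-AF9 cotransduction (adjusted p = 0.0374). Same-numbered libraries deviated together with correlations of 0.067, 0.29 and 0.32 over genes, from 2 pairs each, and the labels give the numbers no meaning, so the samples share only a number.

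For single genes, 2 fold changes in the MLL-AF9 cotransduction changed sign under the correction for length and were called with or without it. Whsc1l1 stood at 0.22 after the correction (adjusted p = 0.0225), against -0.06, and Kdm5a at 0.072 (adjusted p = 0.429), against -0.23. Further signs changed there with no call either way, as for Setd1b (-0.16 to 0.09) and Kdm2a (-0.10 to 0.15). The cause was not tested. Apart from the 2, with all libraries kept, 1424 fold changes stayed on their side of the threshold, 54 lost a call and 40 gained one. With 4 libraries per comparison and unknown depth, effects as small as those in the stable cells are near the limit of what these tables resolve.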

Other observations

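The X-linked partners of the Y-linked demethylases, which were outside the 42, are known to be transcribed from the inactive X chromosome in mice as well. Kdm6a, which removes methyl groups from H3K27, measured 17.4 and 18.3 FPKM with PRDM16 against 17.0 and 16.8 with PRDM16mut in the stable cells, where Xist was high. It measured 8.28 and 8.24 against 8.50 and 8.79 FPKM in the MLL-AF9 cotransduction and 10.4 and 10.7 against 10.3 and 10.1 FPKM in the E2A-HLF cotransduction. Kdm5c, an H3K4 demethylase, measured 26.6 and 25.6 against 25.6 and 27.3 FPKM in the stable cells, 12.2 and 14.5 against 14.7 and 15.1 FPKM in the MLL-AF9 cotransduction, and 20.3 and 21.6 against 20.2 and 18.0 FPKM in the E2A-HLF cotransduction. Both were highest in the 4 stable-cell libraries, on tables that were normalised separately.

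Eif2s3y, a Y-linked translation factor gene looked at after its values were seen, measured 33.2 and 28.8 FPKM with PRDM16 against 5.05 and 5.07 with PRDM16mut in the MLL-AF9 cotransduction. It measured 21.3 and 20.1 against 44.9 and 47.4 FPKM in the E2A-HLF cotransduction, the opposite order. In the same libraries Kdm5d measured 3.02 and 3.43 against 3.84 and 3.69 FPKM with MLL-AF9. With E2A-HLF it measured 6.45 and 6.27 against 7.47 and 6.96 FPKM. Eif2s3y and Kdm5d thus went in opposite directions with MLL-AF9 and in the same direction with E2A-HLF. Ddx3y, also Y-linked, was lower with PRDM16 in both cotransductions. Uty was lower with E2A-HLF, and its groups overlapped with MLL-AF9.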
